A study of Rattus norvegicus with 12 samples.

Results

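Choroid plexus genes were described in bulk RNA-seq of the rat brain after intracerebral hemorrhage (ICH). They are 10 genes known as markers of the choroid plexus epithelium, chosen by symbol and with earlier results of these data known: Ttr, Kl, Folr1, Aqp1, Kcnj13, Kcne2, Clic6, Otx2, Prlr and Sostdc1. Of these, 9 were found among the 24102 gene identifiers of the count table, and Otx2 was not analysed here. The rats were aging male Sprague Dawley rats, and all of them received 75 µL of their own blood in the striatum through a needle. The left, injected hemisphere (ICH) was compared with the right, contralateral hemisphere, so the control tissue also came from animals with a hemorrhage. Groups were the contralateral and the ICH hemisphere at 13 months and at 22 months, with 3 samples in each of the 4 groups, 3 days after ICH. For the older rats, 21 months is written in the sample characteristics but 22 months in the growth protocol, and 22 is used here. The labels name the tissue as brain and do not say which region was dissected.

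The choroid plexus is a folded, vascular tissue in the brain ventricles whose epithelium secretes cerebrospinal fluid and forms the barrier between blood and that fluid. Its cells carry hormones and vitamins across, move ions and water with channels and pumps, and respond to circulating hormones. Transthyretin, the product of Ttr, is its best known secreted protein. Some members are also expressed elsewhere: Ttr in liver and retinal pigment epithelium, Prlr in hypothalamus and liver, and Aqp1 in vessels outside the brain and in red blood cells.

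Total reads on genes ranged from 21060355 to 41262330 per sample, so 3 reads correspond to between 0.0758 and 0.143 CPM (reads per TMM-scaled library size, as in all CPM values here), a floor that covers counting error only. Some libraries stood apart. In 13-month contralateral replicate 2, mitochondrial genes took 0.789% of the reads, against 7.06% to 12.6% in the other samples. In 22-month ICH replicate 1, 41 genes had at least 90% of their reads in that library alone, against at most 2 genes in any other library. Without either of them, 0 members were called by edgeR's adjusted p in any comparison, and the counts over all genes are given below.

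Promoters are described for the members for which one was found. RefSeq promoters of build GRCr8, each reaching from 250 bases before to 50 bases after the gene start, were matched by symbol for 5 members, Ttr, Kl, Aqp1, Kcnj13 and Prlr, with 6 windows because Prlr has 2. They were searched on both strands for TAATC, the core that homeodomain factors of the OTX kind are known to bind, and for TATAAA, the usual core promoter box upstream of a start site; these motifs do not overlap in the windows printed. TAATC was found in 4 of the 6 windows, those of Ttr, Kl, Kcnj13 and the second of Prlr, and 22.9% of all 33469 promoters hold it. TATAAA was found in the Aqp1 and Kcnj13 windows, and 14.2% of all promoters hold it. A match is a description of these letters only. Capitals mark the matches in the windows of Kl (chr12:5325753-5326052, plus strand), Kcnj13 (chr9:95518937-95519236, minus strand) and Aqp1 (chr4:85812534-85812833, plus strand).
Kl: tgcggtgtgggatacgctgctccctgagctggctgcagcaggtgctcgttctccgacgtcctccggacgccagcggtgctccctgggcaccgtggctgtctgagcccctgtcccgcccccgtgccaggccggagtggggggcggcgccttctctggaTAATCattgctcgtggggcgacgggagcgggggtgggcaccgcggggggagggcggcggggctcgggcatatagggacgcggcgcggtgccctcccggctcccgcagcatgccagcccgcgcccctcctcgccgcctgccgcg
Kcnj13: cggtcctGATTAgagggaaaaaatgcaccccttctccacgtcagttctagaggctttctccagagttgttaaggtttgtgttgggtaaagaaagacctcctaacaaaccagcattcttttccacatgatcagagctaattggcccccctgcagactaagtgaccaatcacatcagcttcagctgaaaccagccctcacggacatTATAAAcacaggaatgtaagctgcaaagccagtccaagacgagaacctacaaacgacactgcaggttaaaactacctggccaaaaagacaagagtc
Aqp1: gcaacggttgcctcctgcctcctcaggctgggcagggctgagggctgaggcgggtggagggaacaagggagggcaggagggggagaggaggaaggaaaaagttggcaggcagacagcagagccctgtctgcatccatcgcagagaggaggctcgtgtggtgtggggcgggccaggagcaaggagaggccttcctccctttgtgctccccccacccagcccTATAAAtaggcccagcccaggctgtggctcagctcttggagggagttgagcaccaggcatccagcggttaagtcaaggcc

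The members were not equally abundant. By FPKM, which is scaled by gene length and so allows genes to be ordered, Ttr was highest, with 618 ± 810 FPKM (mean ± SD, n = 12), a spread wider than the mean. Folr1 had 5.26 ± 6.20 FPKM, Clic6 5.03 ± 6.28, Sostdc1 4.86 ± 6.36, Kcnj13 3.59 ± 3.90, Aqp1 2.90 ± 2.68, Kcne2 2.87 ± 2.44 and Kl 2.76 ± 3.55 FPKM (n = 12 each). Neighbours in this order from Folr1 to Kl differed by less than their spread. That spread pools the groups and is largely shared by members that rise together, so it does not measure how far the order varied within samples. Prlr was lowest, with 0.424 ± 0.526 FPKM (n = 12). The order between Ttr and Prlr was not the same in every group: in the 13-month ICH samples Folr1 (14.3 ± 3.18), Clic6 (14.2 ± 3.92) and Sostdc1 (14.0 ± 4.12 FPKM, SD, n = 3 each) came next to Ttr. In the 22-month contralateral samples Kcnj13 (1.47 ± 0.648), Kcne2 (1.41 ± 0.586) and Aqp1 (1.06 ± 0.371 FPKM, SD, n = 3 each) did, and Folr1 had 0.873 ± 0.850 FPKM. The pooled means lie above the medians over the 12 samples, such as 0.65 FPKM for Kl.

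Ttr encodes the carrier of thyroid hormone and, with retinol-binding protein, of retinol. In the contralateral hemisphere at 13 months its replicates 1, 2 and 3 had 102, 189 and 102 CPM, and in the ICH hemisphere 1332, 1848 and 2147 CPM. At 22 months the contralateral replicates had 4.14, 47.1 and 257 CPM and the ICH replicates 154, 1.29 and 971 CPM. The 13-month groups did not overlap, whereas at 22 months the lowest of all 12 samples was an ICH sample, replicate 2, with 30 Ttr reads. The log2 fold change averaged over ages was 2.82 ± 1.09 (SE), and it did not pass edgeR's quasi-likelihood test (adjusted p = 0.14). In bulk samples, more cells of the choroid plexus in a sample and more RNA per cell cannot be told apart.

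Folr1 encodes folate receptor alpha, which carries folate into the cerebrospinal fluid. Its contralateral samples had 1.99, 3.82 and 1.63 CPM at 13 months and 0.0402, 1.34 and 2.72 CPM at 22 months, the lowest of these from 1 read, which is under the floor of 3 reads. Its ICH samples had 16.3, 19.4 and 25.4 CPM at 13 months and 2.83, 0.472 and 14.5 CPM at 22 months. Replicate 2 was again the lowest ICH sample at 22 months. The averaged log2 fold change was 2.58 ± 0.75 (SE) and missed the threshold (edgeR adjusted p = 0.0676).

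Among the genes of ion and water transport, Aqp1 encodes the water channel of the apical membrane. Aqp1 had 5.16, 3.75 and 3.30 CPM in the 13-month contralateral samples, 19.5, 28.7 and 30.1 CPM in the 13-month ICH samples, 3.34, 4.07 and 6.50 CPM in the 22-month contralateral samples and 8.78, 4.20 and 22.9 CPM in the 22-month ICH samples. The 13-month groups were apart, and at 22 months ICH replicate 2 lay within the contralateral range. Aqp1 rose in ICH by an averaged log2 fold change of 2.03 ± 0.36 (SE; edgeR adjusted p = 0.0313).

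Kcnj13 encodes the inward rectifier potassium channel Kir7.1. Kcnj13 had 0.878, 1.76 and 1.48 CPM in the 13-month contralateral samples and 8.95, 16.3 and 19.7 CPM in the 13-month ICH samples. At 22 months it had 1.81, 2.32 and 4.19 CPM in the contralateral and 2.21, 2.02 and 13.6 CPM in the ICH samples. A single 22-month ICH sample, replicate 3, lay above the contralateral samples. Kcnj13 rose by an averaged log2 fold change of 2.28 ± 0.49 (SE; edgeR adjusted p = 0.0355).

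Kcne2 encodes a beta subunit that modifies potassium channels. Kcne2 had 3.28, 2.93 and 2.92 CPM in the 13-month contralateral samples and 10.5, 14.1 and 18.1 CPM in the ICH samples of that age. Its 22-month values were 2.17, 3.54 and 5.26 CPM contralaterally and 3.41, 2.45 and 13.8 CPM in ICH. As for Kcnj13, replicate 3 was the 22-month ICH sample above all contralateral samples. Kcne2 rose by 1.54 ± 0.40 (log2, SE) over both ages (edgeR adjusted p = 0.0477), the smallest averaged change among the 9 members.

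Clic6 encodes a member of the chloride intracellular channel family. Clic6 ranged from 0.472 CPM in 22-month ICH replicate 2, with 11 reads, to 86.1 CPM in 13-month ICH replicate 3, with 2445 reads. Its averaged log2 fold change of 2.54 ± 0.86 (SE) did not pass (edgeR adjusted p = 0.101).

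Of the hormone-related members, Kl encodes klotho, the coreceptor of FGF23. Kl had 2.29, 3.44 and 2.39 CPM in the 13-month contralateral samples, 26.5, 42.0 and 53.2 CPM in the 13-month ICH samples, 0.683, 1.62 and 7.93 CPM in the 22-month contralateral samples and 3.30, 0.729 and 31.3 CPM in the 22-month ICH samples. The averaged log2 fold change was 2.86 ± 0.79 (SE; edgeR adjusted p = 0.059), short of the threshold. Prlr encodes the prolactin receptor, through which the epithelium binds prolactin, and was the member with the fewest reads, between 4 and 174 per sample. Prlr had 0.306, 0.826 and 0.191 CPM in the 13-month contralateral samples, 2.01, 6.11 and 5.32 CPM in the 13-month ICH samples, 0.161, 0.379 and 0.713 CPM in the 22-month contralateral samples and 0.762, 0.343 and 3.62 CPM in the 22-month ICH samples. Prlr rose by 2.62 ± 0.62 (log2, SE; edgeR adjusted p = 0.0408).

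Sostdc1 encodes a secreted antagonist of BMP and Wnt signalling. Sostdc1 ranged from 0.172 CPM, 4 reads, in 22-month ICH replicate 2 to 43.4 CPM, 1232 reads, in 13-month ICH replicate 3. It had the largest averaged log2 fold change of the members, 3.08 ± 0.94 (SE), and did not pass (edgeR adjusted p = 0.0751).

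**Figure D1:**
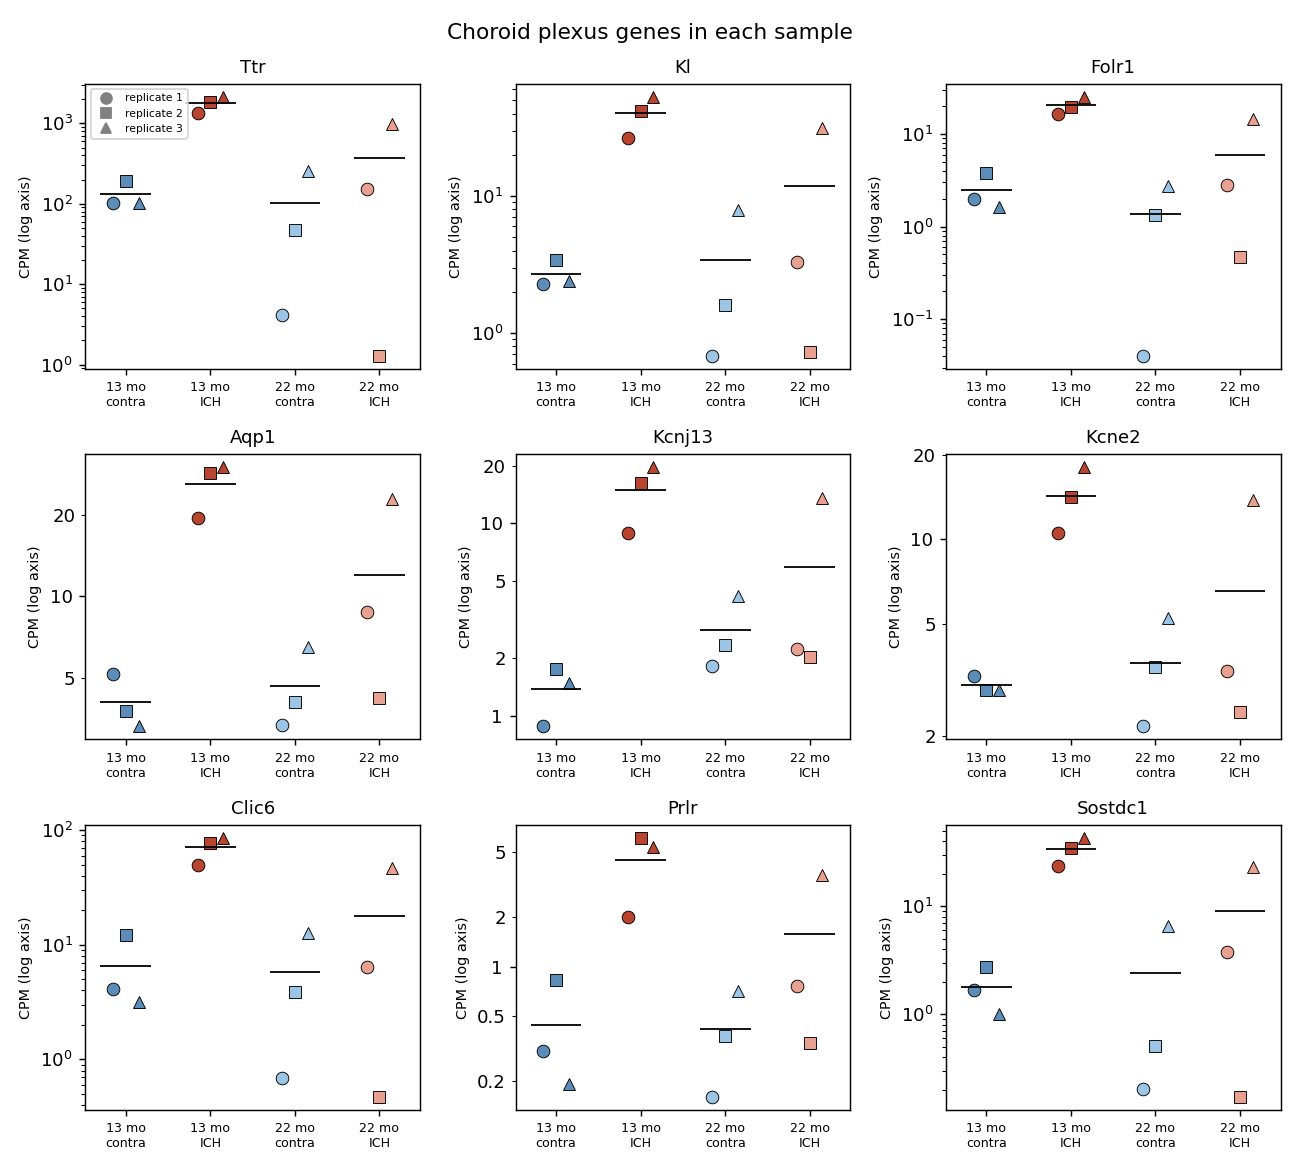
Each panel plots 1 choroid plexus gene in CPM on a log axis for the 12 samples; symbols are replicates 1 to 3 and the line is the mean of a group. The 13-month ICH samples lie above the 13-month contralateral samples in all 9 panels, and at 22 months ICH replicate 2 is low.

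Averaged over ages, 4 of the 9 members, Aqp1, Kcnj13, Kcne2 and Prlr, were higher in ICH by edgeR's quasi-likelihood test, where 4.98% of the 19061 genes tested were higher. The list was chosen with earlier results of these data known. Counts of members beside shares of all genes, here and below, are therefore a description and no separate test of the list. All 9 members had a positive log2 fold change and an unadjusted p under 0.05, which 4651 genes (24.4%) had in either direction, and their median log2 fold change was 2.58 beside 0.0046 over all genes tested. The calls over all genes, 1036 in either direction, changed with single libraries, and those of the members with them. Without 13-month contralateral replicate 1 edgeR called 521 genes and 1 member, Aqp1; without 13-month ICH replicate 3 it called 2949 genes and the same 4 members, and without 22-month ICH replicate 2 it called 2329 genes and all 9 members. Without any of the other 9 libraries, among them 13-month contralateral replicate 2 and 22-month ICH replicate 1, 0 members and 0 genes were called, with between 3471 and 5185 genes at an unadjusted p under 0.05. In those 9 fits the members' median log2 fold change was 1.59 without 22-month ICH replicate 3 and between 2.29 and 3.02 in the others. DESeq2 called 8 of the 9 members, all but Ttr, and 2594 genes (13.6%). With its size factors in the edgeR fit Kcne2 was not called (3 members and 949 genes were). With 22-month replicate 2 left out on both sides, an alternative chosen after seeing the data, edgeR called 7 members and 1239 genes.

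At 13 months the log2 fold changes lay between 2.23 for Kcne2 and 4.22 for Sostdc1, with a median of 3.44 beside 0.0073 over all genes. The groups did not overlap for 9 of 9 members, higher in ICH in each, and for 12.5% of all genes in that direction. The study's own threshold asks for p under 0.01 before adjustment and a log2 fold change beyond 1 in size. It was passed by 5 members (Aqp1, Kcnj13, Kcne2, Kl and Prlr) and by 4.42% of all genes in that direction. With 1 library left out in turn, between 2 and 9 members passed it, and the share of all genes changed too. It was passed by 2 members and 1.29% of all genes without 13-month contralateral replicate 3, by 3 members without 13-month contralateral replicate 1 (4.12%), 13-month contralateral replicate 2 (2.41%) or 13-month ICH replicate 2 (1.92%), by 8 without 22-month ICH replicate 3 (4.12%) and by 9 without 22-month ICH replicate 2 (5.46%). The share was 1.68% without 13-month ICH replicate 1, where 5 members passed, and 7.44% without 13-month ICH replicate 3, where 4 did. None of the 9 members had an edgeR adjusted p under 0.05, nor did any gene (0 of 19061, 0%), while 4010 genes (21.0%) and all 9 members had an unadjusted p under 0.05 and DESeq2 called 1641 genes (8.61%) and 6 members. Aqp1 and Kcnj13 were called by edgeR without 13-month ICH replicate 3 (adjusted p = 0.0219 and 0.0288) and without 22-month ICH replicate 2 (adjusted p = 0.0418 and 0.0449). In these 2 fits more of all genes also passed the study's threshold, higher in ICH, with 7.44% and 5.46% against 4.42% in the main fit. The number of all genes called at 13 months also changed with 1 sample left out, and its range is given under the processing.

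At 22 months the log2 fold changes were smaller, between 0.85 for Kcne2 and 2.14 for Folr1, with a median of 1.81 beside 0.0039 over all genes. The groups overlapped for all 9 members (0 of 9 apart, where 6.98% of all genes were apart and higher in ICH), and 0 of 9 passed the study's threshold, which 1.74% of all genes passed in that direction. EdgeR's adjusted test called 0 members and 0 genes (0%), with 2 members, Aqp1 and Prlr, and 1396 genes (7.32%) at an unadjusted p under 0.05, and DESeq2 called 0 members and 209 genes. The 0 members and 0 genes called by edgeR and the 0 members past the study's threshold were also 0 without 22-month ICH replicate 1 and without 13-month contralateral replicate 2, with 0.344% and 1.35% of all genes past it. Without 22-month ICH replicate 2, 1 member, Aqp1, and 4.44% of all genes passed it. Without 22-month ICH replicate 3, the log2 fold change of 6 members turned negative: Ttr -0.40, Kl -0.72, Kcnj13 -0.38, Kcne2 -0.31, Clic6 -0.71 and Sostdc1 -0.23. The lowest values of Folr1, Aqp1 and Prlr with 1 sample left out were 0.30, 0.49 and 0.43.

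The effect of ICH was not shown to differ between ages. The difference was negative for all 9 members, 22 minus 13 months, with a median of -1.79 beside -0.0069 over all genes, and the test of it by edgeR called 0 members and 0 genes (0%); 299 genes and 1 member, Kcnj13 (-2.33 ± 0.96, log2, SE), had an unadjusted p under 0.05, and DESeq2 called 0 genes. The age comparisons share samples with the ICH comparisons. Between ages, 0 members were called in the contralateral hemisphere (0.0367% of all genes were) and 0 in the ICH hemisphere (0.0315% of all genes were) by edgeR, with 0 and 1 members (Aqp1, -1.12 ± 0.49, log2, SE) and 777 and 941 genes at an unadjusted p under 0.05, and DESeq2 called 0 members in each. The 7 genes called contralaterally were 4 without 13-month contralateral replicate 2 and 7 without 22-month ICH replicate 1, and the 6 called in ICH were 8 and 4.

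Hemispheres with the same replicate number were also compared on log2(CPM + 0.5). The labels do not say that equal numbers mark the same rat, so these are differences between same-numbered samples. Aqp1 was higher in ICH in 6 of 6 differences (mean 1.78 ± 1.08, SD), with an exact sign-flip p of 0.0312, the smallest that 6 differences allow. The other 8 members were higher in 5 of 6, with 22-month replicate 2 as the exception each time, and their exact sign-flip p lay between 0.0625 and 0.188. For Ttr that replicate differed by -4.74, while the other 5 lay between 1.92 and 5.05.

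**Figure D2:**
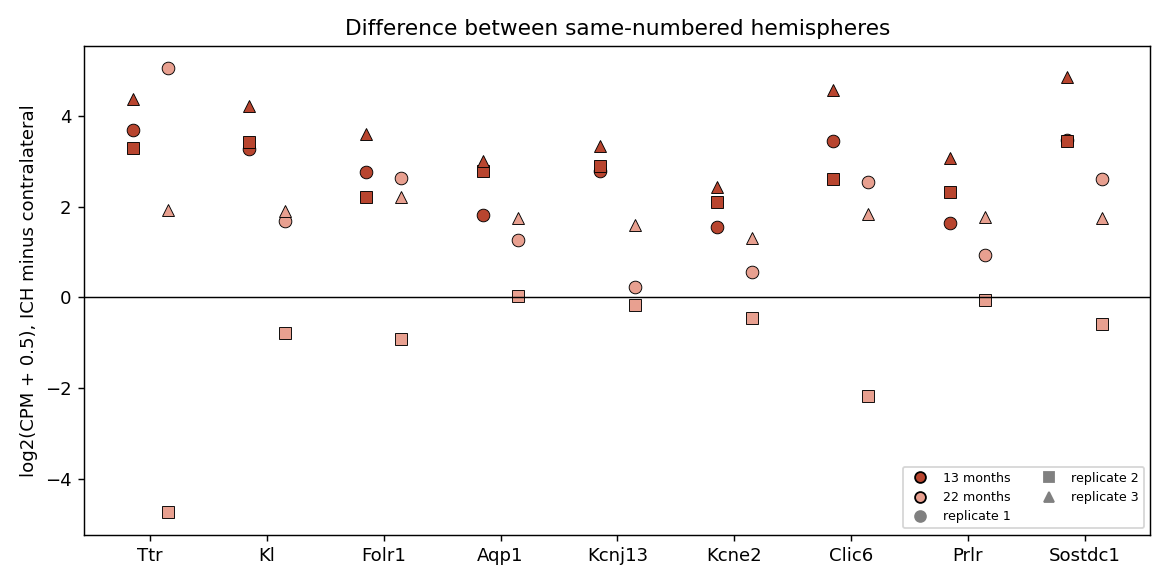
Each symbol is the difference in log2(CPM + 0.5), ICH minus contralateral, between samples with the same replicate number, by gene and age. For 22-month replicate 2 it is below 0 in 8 of the 9 genes and 0.04 in Aqp1.

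The members followed each other across samples. The same 4 samples, 13-month ICH replicates 1, 2 and 3 and 22-month ICH replicate 3, held the highest 4 values of every member. Over the 6 ICH samples, Pearson's r between members lay between 0.85 and 1.00 in 36 pairs (median 0.97) and Spearman's rho between 0.89 and 1.00; over the 6 contralateral samples r lay between 0.12 and 0.97 (median 0.75) and rho between -0.09 and 1.00; these are descriptions, and all genes of a sample share its library and depth. Over the 6 differences between same-numbered samples, r lay between 0.58 and 0.99 (median 0.91) and rho between 0.26, for Ttr with Prlr, and 1.00 (median 0.89); 22-month replicate 2 was the lowest difference of every member.

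The members parted where Ttr was lowest. In the 13-month ICH samples, 1000 Ttr reads came with 14.6, 15.5 and 14.0 reads of Aqp1 and with 6.72, 8.79 and 9.15 reads of Kcnj13. In 22-month contralateral replicate 1, which had 103 Ttr reads, Aqp1 had 83 reads, Kcnj13 45 and Kcne2 54, while Folr1 had 1 and Sostdc1 5. In 22-month ICH replicate 2, which had 30 Ttr reads, Aqp1 had 98 reads, Kcnj13 47 and Kcne2 57, while Folr1 had 11 and Sostdc1 4. Per 1000 Ttr reads, all other members were higher in that sample than in the 13-month ICH samples. Folr1 had 367, Sostdc1 133, Kl 567 and Clic6 367 reads by this measure. From its own highest to its own lowest sample, Kcne2 differed 8.32-fold, Aqp1 9.13-fold and Kcnj13 22.4-fold in CPM, Sostdc1 253-fold and Ttr 1668-fold. The lowest sample was not the same for each member. It was 13-month contralateral replicate 1 for Kcnj13 (0.878 CPM) and 13-month contralateral replicate 3 for Aqp1 (3.30 CPM).

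**Figure D3:**
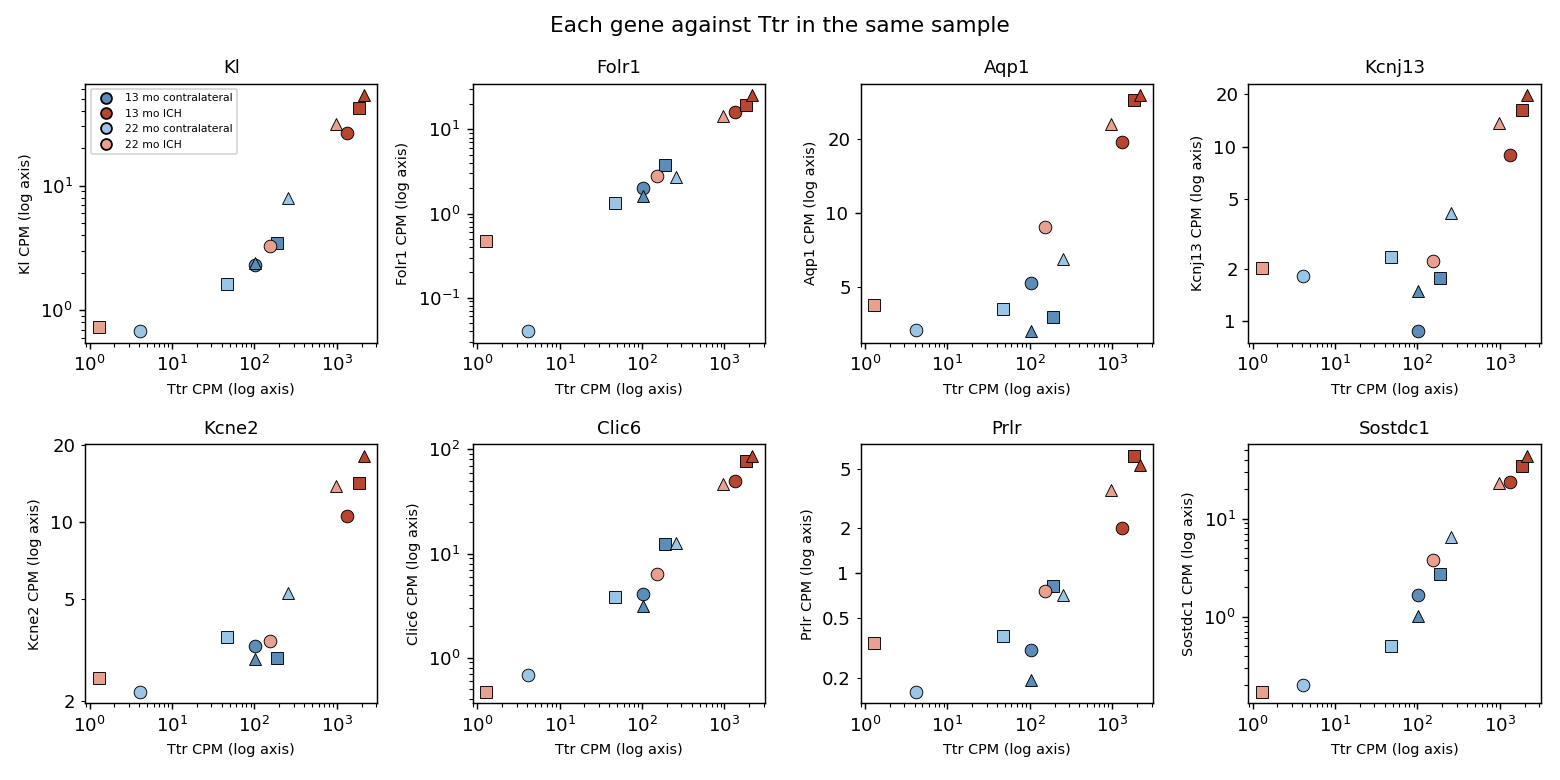
Each panel plots 1 gene against Ttr in the same sample, both in CPM on log axes, with colours for the 4 groups and symbols for replicates. Clic6 and Sostdc1 were lowest, at 0.472 and 0.172 CPM, in the sample with the lowest Ttr value, while Aqp1, Kcnj13 and Kcne2 still had 4.20, 2.02 and 2.45 CPM there.

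The 10 genes most like the mean standardised pattern of the members over the 12 samples, among 14453 genes of at least 1 CPM, were Slco1a2 (r = 0.99), Tmem27, Cldn2, Mfrp, F5, Fam183b, Scgb1c1, Slc4a5, Calml4 and LOC654482 (r = 0.97). Of these, Cldn2, Mfrp, F5, Slc4a5 and Calml4 are among 30 other genes listed for the choroid plexus epithelium. Cldn2 encodes a claudin of its tight junctions and Slc4a5 a sodium bicarbonate cotransporter. These 10 genes were chosen by their likeness to members that were higher in ICH, in the same 12 samples, so their own fold changes in ICH are no separate result. The first of them, Slco1a2, was listed here for endothelium. The first 50 genes held 9 of the other choroid plexus genes and 3 ependymal genes. The pattern was not particular to the choroid plexus lists: the median r with it was 0.87 over the other choroid plexus genes and 0.88 over the ependymal genes.

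Of the 30 other choroid plexus epithelium genes, 9 were higher in ICH averaged over ages by edgeR's adjusted p and 0 lower, where 4.98% of all genes were higher and 0.451% lower, and the median log2 fold change was 1.24. Slc31a1, a copper transporter, rose by 0.99 ± 0.16, Trpv4, a cation channel, by 1.70 ± 0.28, Abca4, a lipid transporter, by 1.80 ± 0.31, Ace by 0.95 ± 0.19 and Igfbp2, which binds insulin-like growth factors, by 1.34 ± 0.27 (log2, SE). The most abundant of the list were Enpp2, Htr2c and Igf2, which other brain cells also express; Enpp2 rose by 1.18 ± 0.27 and Htr2c had 0.25 ± 0.34 (log2, SE).

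Fluid secretion transporters and channels, most of them also expressed by neurons and glia, had 0 of 13 genes called by edgeR and a median of -0.05, with 5 at an unadjusted p under 0.05; of all genes 4.98% were called higher and 0.451% lower, and 24.4% had an unadjusted p under 0.05. Among the most abundant, Atp1b1 and Car2, a carbonic anhydrase, had log2 fold changes of -0.32 ± 0.13 and -0.03 ± 0.16 (SE). Partners of the members, which act with their products, had 0 of 16 called by edgeR and a median of 0.13, with 3 at an unadjusted p under 0.05, beside the same shares of all genes; Aqp4, Fgfr1 and Lrp4 were the most abundant, with 0.54 ± 0.18, 0.15 ± 0.15 and 0.12 ± 0.12 (log2, SE).

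Of 11 ependymal genes 1 was called averaged over ages, Rarres2, the most abundant (1.46 ± 0.33, log2, SE), beside 4.98% of all genes higher. The median log2 fold change of the list was 1.46, with 5 at an unadjusted p under 0.05 (24.4% of all genes were). Rarres2 had 20.1 CPM in 13-month ICH replicate 3, the highest sample of most members, and its r with the pattern of the members was 0.60, against a median of 0.88 over the list. The summed CPM of the list in replicates 1, 2 and 3 was 33.7, 54.7 and 34.4 in 13-month contralateral, 113, 159 and 115 in 13-month ICH, 27.4, 54.8 and 52.7 in 22-month contralateral and 89.9, 38.3 and 123 in 22-month ICH samples. Of 12 leukocyte genes 7 were called and higher (4.98% of all genes were), led in abundance by Lyz2 (3.66 ± 0.63, log2, SE), with a median of 2.07 and 10 at an unadjusted p under 0.05 (24.4% of all genes were). Their summed CPM was 587, 405 and 281 in 13-month contralateral, 3342, 3345 and 900 in 13-month ICH, 297, 490 and 275 in 22-month contralateral and 2487, 387 and 1386 in 22-month ICH samples. In 22-month ICH replicate 2, both sums were within the contralateral range. Leukocyte sums and members parted in other ICH samples: 13-month replicate 3 had a summed member level of 2428 CPM with 900 CPM of leukocyte genes, and 22-month replicate 1 had 185 CPM, within the contralateral range, with 2487 CPM. In that sample Ttr made up 154 of the 185 CPM; Aqp1, at 8.78 CPM, was above every contralateral sample (at most 6.50 CPM), and the other 8 members were within their contralateral ranges. None of these genes was at 0 in all samples, and the part of these cells in the result was not tested.

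Markers of the hypothalamus had 1 of 8 called and higher (4.98% of all genes were), Pmch (5.21 ± 1.30, log2, SE), a median of 1.60 and 2 at an unadjusted p under 0.05 (24.4% of all genes were). Their summed CPM, in which Oxt was the most abundant gene, was 11.2, 11.5 and 12.4 in 13-month contralateral, 17.4, 130 and 281 in 13-month ICH, 108, 197 and 8.46 in 22-month contralateral and 278, 6.35 and 11.1 in 22-month ICH samples. This sum was low in 22-month ICH replicate 3, where the members were high. It was lowest in 22-month ICH replicate 2, where the summed members were also lowest (12.1 CPM). It was highest in 13-month ICH replicate 3, where the summed members were highest (2428 CPM). Between same-numbered samples it was higher in ICH except in 22-month replicate 2. The part of the hypothalamus sum in the result was not tested. Of the other lists, genes of the thalamus and habenula had 0 of 5 called (median 0.81, 1 at an unadjusted p under 0.05), meninges and stroma 1 of 11 (Lum, higher, median 0.37, 5 at an unadjusted p under 0.05), endothelium 0 of 8 (median 0.04, 1 at an unadjusted p under 0.05, Slco1a2), retinal pigment epithelium and pineal 0 of 9 (median -0.02, 3 at an unadjusted p under 0.05), liver 0 of 8 (median 0.13, 2 at an unadjusted p under 0.05) and red blood cells 0 of 5 (median 0.13, 1 at an unadjusted p under 0.05). Striatal genes had 0 of 8 called (median -0.34, 0 at an unadjusted p under 0.05), hippocampal genes 0 of 6 (median 0.08, 0 at an unadjusted p under 0.05), neuronal genes 0 of 6 (median -0.34, 1 at an unadjusted p under 0.05) and glial genes 1 of 6 (Gfap, higher, median 0.11, 2 at an unadjusted p under 0.05), all by edgeR averaged over ages, where 4.98% of all genes were higher. The share of all genes at an unadjusted p under 0.05 was 24.4% beside each of these lists. The summed striatal genes, led by Ppp1r1b, differed between libraries and ages: 472, 414 and 530 CPM in 13-month contralateral, 332, 351 and 505 in 13-month ICH, 1464, 1715 and 1076 in 22-month contralateral and 756, 1857 and 752 in 22-month ICH samples. This sum was highest in 22-month ICH replicate 2, where Ttr was lowest, and the median r of these genes with the pattern of the members was -0.57; its part in the results by age and in this replicate was not tested.

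**Figure D4:**
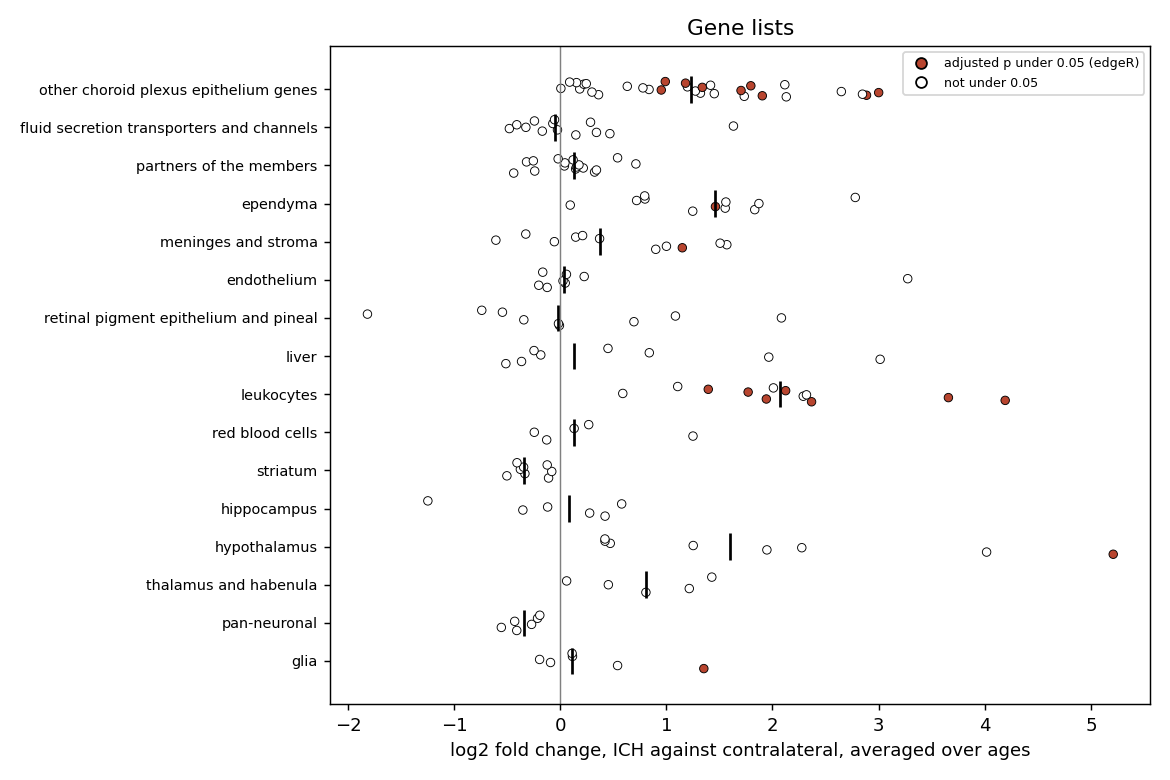
Each point is the log2 fold change of 1 gene, ICH against contralateral averaged over ages, by list; the bar is the median of a list and filled points have an edgeR adjusted p under 0.05. The leukocyte list has 7 filled points and the list of other choroid plexus genes 9.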

How the data were processed

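RNA-seq of rat brain was analysed for 12 samples, and samples were grouped by their titles. Per the study's methods, Cutadapt was used by the authors for trimming and TopHat2 for alignment to Rnor_6.0, and reads with a single location were kept. The authors deposited counts of these reads for 24102 genes, without normalization, and deposited FPKM values, which correct for gene length and depth, for 24099. How reads were assigned to genes, and whether strand was used, is not given in the sources used here. A further 4 columns per table (8 over both), numbered as replicate 4, match no described sample and were not used. The members and lists were chosen with earlier results of these data known.

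Genes with at least 10 reads over the 12 samples (19061) were scaled by TMM and fitted with 4 group means in edgeR 4.0.16 (R 4.3.3; glmQLFit, prior count 0.125), and contrasts were tested by glmQLFTest with Benjamini-Hochberg adjustment at 0.05. The SE is the size of the log2 fold change over the square root of F. Differences between same-numbered hemispheres in log2(CPM + 0.5) had exact two-sided sign-flip tests (Python 3.11.15, SciPy 1.17.1, matplotlib 3.10.9). Named genes were the members, the 3 most abundant and at most 5 called genes of each list, and the 10 genes most like the members; Cldn2 and Slc4a5 came from the last of these. A gene that this rule names is not reported here. Alternatives were DESeq2 1.42.0 (size factors and test), limma 3.58.1 on log2 FPKM with a pseudocount of 1 or 0.1, other filters, a prior count of 2, a replicate block and each sample left out. Replicates within a group were checked for duplicates, and none was found.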

Additional observations from a re-analysis of the deposited data

Results flagged for a closer look

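The difference between same-numbered hemispheres at 22 months in replicate 2 lay far from the other 5 differences for 2 of the 9 members tested. It was -4.74 for Ttr and -0.92 for Folr1, ICH minus contralateral, on log2(CPM + 0.5). By chance about 1 in 20 such groups would show a sample this far from the rest, if each group were drawn from 1 normal population. The differences pool both ages, and the 9 members share the same samples and moved together. They are not 9 separate groups, so the rate cannot be set against 2 of 9. The Folr1 value rests on 11 reads in the ICH and 53 in the contralateral sample. In the same ICH library the summed leukocyte genes were at 387 CPM, within the contralateral range; the part of the library in the result was not tested.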

How the results depend on the processing

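The number of called members in the averaged comparison, 4, was 3 with DESeq2 size factors (Kcne2 lost), 5 with no filter (Kl added), 8 by DESeq2, 0 by limma on log2(FPKM + 1), 0 by limma on log2(FPKM + 0.1), 7 with 22-month replicate 2 left out on both sides (chosen after seeing the data) and between 0 and 9 with 1 sample left out. The 1036 genes called were 949 with DESeq2 size factors, 1119 with no filter, 2594 by DESeq2 and 1239 with 22-month replicate 2 left out on both sides. Limma called 0 with a pseudocount of 1 and 1 with 0.1, and leaving out 1 sample gave between 0 and 2949. At 13 months DESeq2 called 1641 genes and 6 members; with 1 sample left out edgeR called between 0 and 2064 genes and between 0 and 2 members. The 5 members past the study's threshold at 13 months (4.42% of all genes higher in ICH) were 8 with the replicate block (5.4%) and 9 without 22-month replicate 2 on both sides (4.77%). With 1 sample left out they were between 2 and 9, and the share of all genes lay between 1.29% and 7.44%. At 22 months DESeq2 called 209 genes and limma on log2(FPKM + 0.1) called 1, and with 1 sample left out between 0 and 137 were called. Between 0 and 1 members passed the study's threshold with 1 sample left out, beside 0.344% to 4.44% of all genes higher in ICH. By DESeq2 1 member passed it (3.05% of all genes), and without replicate 2 on both sides 1 did (2.97%). In the main fit 0 members and 1.74% of all genes passed. The 7 genes called between ages contralaterally were 11 with no filter, 38 by DESeq2, 4 by limma on log2(FPKM + 1) and between 2 and 13 with 1 sample left out; the 6 in ICH were 39 by DESeq2 and between 1 and 11. The causes were not tested.

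Without 22-month ICH replicate 3 the 22-month log2 fold changes of Ttr (-0.40), Kl (-0.72), Kcnj13 (-0.38), Kcne2 (-0.31), Clic6 (-0.71) and Sostdc1 (-0.23) reversed; the cause was not tested. The highest values with 1 sample left out were 3.88, 3.34, 1.54, 1.24, 2.94 and 4.62 in the same order. The mean differences between same-numbered hemispheres kept their direction and side of 0.05 on log2(CPM + 0.1) and log2(FPKM + 1). The 9 and 0 members whose groups did not overlap at 13 and 22 months were 9 and 0 by FPKM, an alternative chosen after seeing the data.

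Samples with the same number deviated together in 5 of 6 pairs (r over 0.1; range 0.076 to 0.381), and 11 of 12 samples correlated best with their own number, a hint from the data and not the design. With the replicate block 1069 genes and 6 members were called in the averaged comparison, Kl and Sostdc1 added to the 4. Depth was lowest for Prlr, with at most 24 reads in any contralateral sample.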
